A study of Homo sapiens with 2 samples.

Results

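Osteoprotegerin (TNFRSF11B), the receptors of TRAIL and FAS, the TNF receptor TNFRSF1A and the ligands TRAIL (TNFSF10) and RANKL (TNFSF11) were followed in SW480, a long-established cell line from a human colorectal adenocarcinoma. The 10 genes were chosen by name as death receptors, decoy receptors and ligands, after osteoprotegerin had passed a 2-fold difference in an earlier look at these data. Of the 10, 8 had a probe set annotated to that gene alone, among 18417 genes with such a probe set on the array. The only probe sets of TNFRSF10C and TNFRSF6B, both decoy receptors, were shared with other annotated genes (LOC254896 for TNFRSF10C, RTEL1 and its read-through transcript for TNFRSF6B), so no value is given for either. The cells were stable transfectants selected with Geneticin, from which single clones had been picked. One array held RNA of cells with the TFAP2E coding sequence in the pTarget expression vector, and the other held RNA of empty vector control cells. The labels do not say how many clones each array stands for. With 1 array per group, a difference between clones and an effect of TFAP2E cannot be told apart, and no error or test can be given for any difference.

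The members belong to the TNF superfamily. Trimeric ligands such as TRAIL and FAS ligand bind death receptors, whose intracellular death domain recruits the adaptor FADD and caspase-8 and can start apoptosis. Decoy receptors bind the same ligands without passing on a full death signal, either because they lack a working death domain or because they are secreted. Osteoprotegerin is a secreted decoy best known in bone, where it keeps RANKL from its receptor RANK and so restrains osteoclast formation, and it can also bind TRAIL. Colorectal cancer lines commonly carry TRAIL receptors and differ in how they respond to TRAIL.

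TFAP2E encodes AP-2 epsilon, a transcription factor of a family that binds the palindrome GCCNNNGGC. To show the DNA in front of members, the 250 bases upstream of annotated starts were read from RefSeq (GRCh38.p14) and searched on both strands for GCCNNNGGC, which reads the same on both strands, and for the TATA box letters TATAAA. From the table of such windows, 8 for 5 members were used, FAS (3 windows), TNFRSF1A (1), TNFRSF6B (1), TNFSF10 (1) and TNFSF11 (2). No window of TNFRSF11B or of TNFRSF10A, TNFRSF10B, TNFRSF10C or TNFRSF10D was searched, so the motif counts say nothing about these genes. GCCNNNGGC was present in 1 of the 8 windows, and in 19.8% of all 35116 windows in the table. TATAAA was present in 2 of the 8, against 10.7% of all windows. Printed 5′ to 3′ with both motifs in capitals are 3 windows, chosen as 1 for each ligand and 1 for a death receptor. They are chr3:172523431-172523680 on the minus strand for TNFSF10, chr13:42573902-42574151 on the plus strand for the second listed start of TNFSF11, and chr12:6342077-6342326 on the minus strand for TNFRSF1A.
TNFSF10: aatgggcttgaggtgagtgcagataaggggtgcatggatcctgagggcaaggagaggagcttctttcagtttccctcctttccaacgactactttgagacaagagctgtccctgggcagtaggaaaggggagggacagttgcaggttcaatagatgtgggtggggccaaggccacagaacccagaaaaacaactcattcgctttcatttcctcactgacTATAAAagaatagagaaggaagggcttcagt
TNFSF11: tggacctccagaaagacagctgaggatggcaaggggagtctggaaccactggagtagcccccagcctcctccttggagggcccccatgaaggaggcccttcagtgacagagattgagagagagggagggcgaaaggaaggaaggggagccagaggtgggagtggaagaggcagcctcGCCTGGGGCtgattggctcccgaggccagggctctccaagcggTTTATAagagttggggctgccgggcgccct
TNFRSF1A: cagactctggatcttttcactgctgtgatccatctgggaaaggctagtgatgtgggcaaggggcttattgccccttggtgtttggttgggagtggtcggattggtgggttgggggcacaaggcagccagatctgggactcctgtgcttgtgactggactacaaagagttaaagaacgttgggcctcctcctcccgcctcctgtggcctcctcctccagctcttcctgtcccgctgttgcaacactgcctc
The TNFSF10 window holds TATAAA from 31 bases before the start. The TNFSF11 window holds TATAAA on the opposite strand from 30 bases before the start, and GCCNNNGGC from 73 bases before it, and the motifs do not overlap. The TNFRSF1A window holds neither motif, nor do the windows not printed, which include the other start of TNFSF11. A match is a string of letters and not a shown binding site.

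Osteoprotegerin was the member that differed most. TNFRSF11B had a log2 level of 7.55 on the TFAP2E array and 8.56 on the empty vector array, where levels are RMA values (log2 signal after background correction and normalisation of the arrays to each other). The TFAP2E array was thus lower, by 2.01-fold, a log2 difference (TFAP2E minus empty vector) of -1.01. Both levels lay well above 5.55, the middle value of the whole table, below which a gene was treated as dim. This difference is the one for which the set was assembled, and it is given as a description.

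The larger of both levels reached 5.55 for 11548 genes, and these were compared. At least 2-fold lower were 0.113% of these, 13 genes, and osteoprotegerin passed that threshold narrowly. Lower differences than that of TNFRSF11B were found for 11 of the 11548 genes. Among the 2680 genes whose mean level lay within 0.5 log2 units of that of TNFRSF11B, 2 were lower still, and 95% had differences between -0.33 and 0.47. Since the set was assembled around this difference, its rank follows from that choice and supports nothing further.

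**Figure D1:**
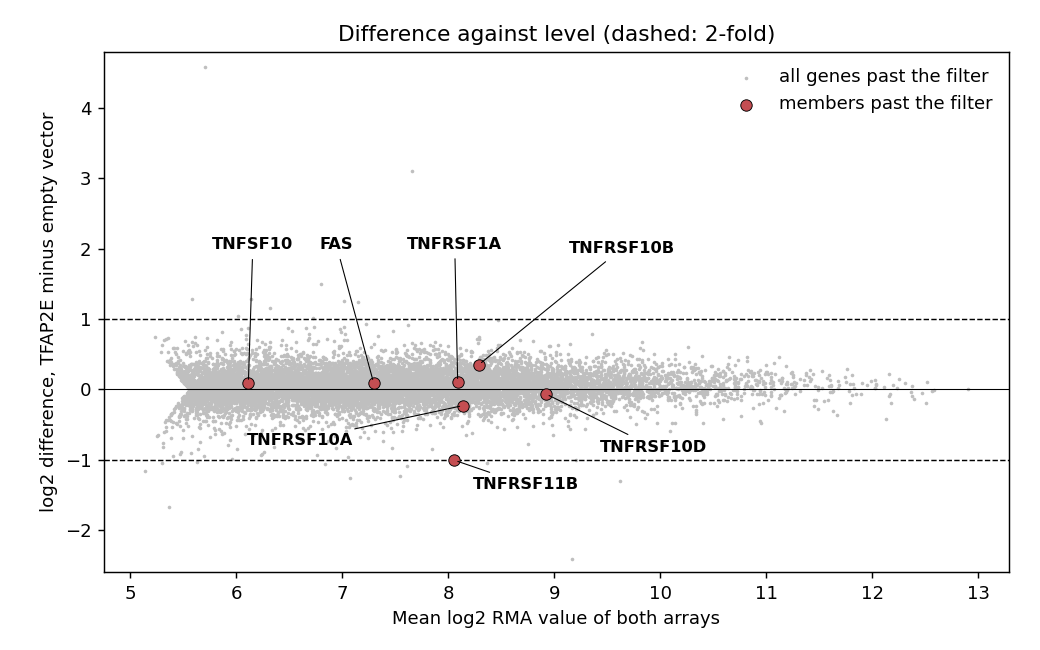
Log2 difference (TFAP2E minus empty vector) against the mean log2 RMA value of both arrays for the 11548 genes past the filter (grey) and the 7 members past it (red, named), with dashed lines at 2-fold. TNFRSF11B lies on the lower 2-fold line at -1.01, and the other 6 members lie between -0.23 and 0.35.

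Genes measured by different probe sets show how far readings of 1 gene can disagree. For 308 genes with exactly 2 probe sets past the filter, the differences of the pair were set against each other, leaving out 36 genes whose pairs agreed within 0.01 on both arrays. The gap between the differences had a median of 0.09 on the log2 scale, 95% of gaps were at most 0.41, and a gap of at least 1 occurred in 0 of the 308. These gaps show disagreement among probe sets on the same pair of arrays. They hold nothing of the variation between cultures or clones. TNFRSF11B itself has a single probe set, so that its difference was read only once, and these gaps give no error for it.

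The bone-related partners of osteoprotegerin were dim. TNFSF11, which encodes RANKL, had a log2 level of 3.52 on both arrays. It was the only one of the 8 members with a probe set of their own that stayed below the filter. TNFRSF11A, which encodes the receptor RANK, read 5.18 on both arrays and was dim too. A difference of RANKL or RANK could not be judged at these levels. Downstream of RANK, 6 genes of RANK signalling and the non-canonical NF-kB pathway passed the filter, 2 of them higher and 4 lower in the TFAP2E array. The NF-kB subunit gene NFKB2 was highest at 0.26 and the kinase gene MAP3K14 lowest at -0.21.

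The TRAIL receptor genes did not differ in a common direction. TNFRSF10B, a TRAIL receptor with a death domain, read 8.46 on the TFAP2E array against 8.11 with the empty vector, a log2 difference of 0.35 (1.27-fold). Higher differences were found for 6.36% of the 11548 genes. TNFRSF10A, the other TRAIL death receptor, went the opposite way, with 8.02 against 8.26 and a difference of -0.23. Lower differences were found for 7.79% of all genes. TNFRSF10D, a decoy with a truncated death domain, read 8.89 against 8.95, a difference of -0.07. Its levels were nearly equal.

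Each of these values lay inside the interval that held 95% of all genes, -0.37 to 0.47. The difference of TNFRSF10B exceeded that of TNFRSF10A by 0.58 and that of TNFRSF10D by 0.41. Gaps between the probe sets of 1 gene are no measure for contrasts between different genes, and neither contrast was tested. TNFSF10, the gene of TRAIL itself, read 6.16 against 6.07, a difference of 0.09, only slightly above the median of all genes, 0.04. Ligand and receptor values of different genes come from different probes and are not ranked against each other here.

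FAS and TNFRSF1A were close to equal on the arrays. FAS, the receptor of FAS ligand, read 7.34 on the TFAP2E array against 7.25 with the empty vector, a log2 difference of 0.09. TNFRSF1A, the main TNF receptor with a death domain, read 8.14 against 8.04, a difference of 0.10. Both are small steps next to the standard deviation of all genes' differences, 0.22. FASLG, the gene of FAS ligand, was dim on both arrays, at 5.36 and 5.31.

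**Figure D2:**
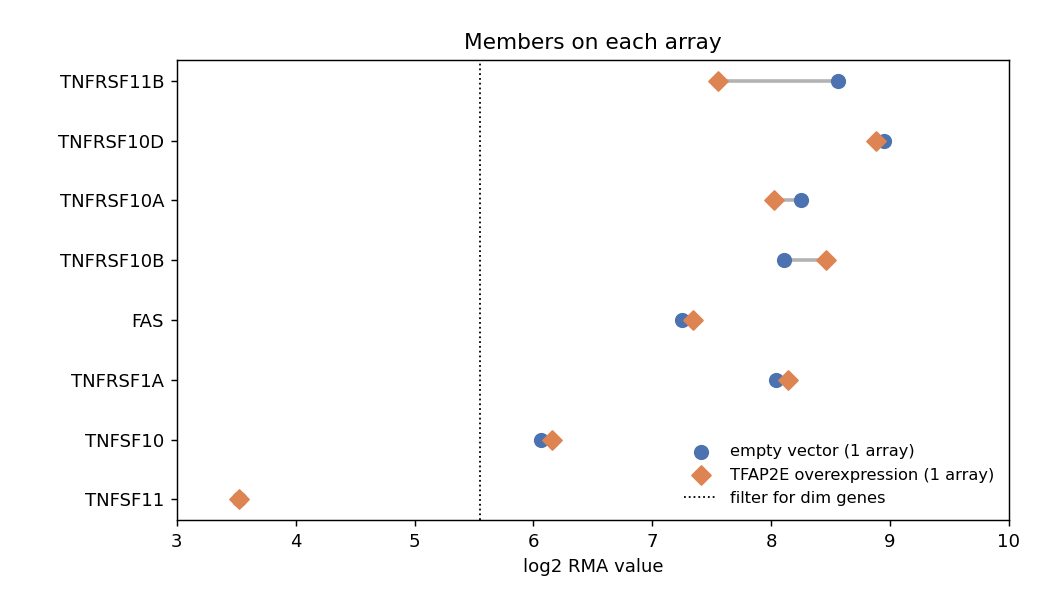
Log2 RMA value of the 8 members with a probe set of their own, on the empty vector array (circle) and the TFAP2E array (diamond), 1 array each, with grey lines joining the pair and a dotted line at the filter of 5.55. TNFRSF11B shows the widest gap, 7.55 against 8.56, and TNFSF11 lies at 3.52 on both arrays.

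By role, the 4 death receptors all passed the filter, 3 of them higher and 1 lower in the TFAP2E array, with a median difference of 0.10. Of the 4 decoy receptors 2 had a value of their own, TNFRSF11B and TNFRSF10D, and both were lower, as were 39.5% of all 11548 genes. The set was assembled around TNFRSF11B, and TNFRSF10D was nearly equal at -0.07. They do not speak for decoys as a class. Over the 7 members past the filter 4 were higher and 3 lower. Their median difference was 0.09, next to 0.04 for all 11548 genes, of which 59.2% were higher. At least 1.5-fold lower was 1 of the 7, TNFRSF11B, where the same fold was passed by 0.606% of all genes. At least 1.5-fold higher were 0 of the 7 and 0.892% of all genes. The other 6 members lay between -0.23 and 0.35.

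The wider family and the signalling genes below the receptors differed little. The 11 lists held 110 genes, of which 97 had a probe set of their own and 70 passed the filter. In the TFAP2E array, 59.2% of all 11548 genes were higher and 39.5% lower, with a median difference of 0.04. Of the 70, 36 were higher and 30 lower, with a median of 0.01. DDIT3 alone, the transcription factor CHOP, passed 1.5-fold, at 7.89 against 7.07 (log2 difference 0.82). It can induce TNFRSF10B under endoplasmic reticulum stress. That is 1.43% of the 70, next to 1.5% of all 11548 genes past 1.5-fold in either direction.

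Of the other receptors of the family, 15 of 21 passed the filter, 6 higher and 8 lower, with a median of -0.03. The lowest was NGFR, the low-affinity neurotrophin receptor with a death domain, at 8.66 against 9.13 (-0.47). TNFRSF19, chosen after its value was seen, followed at 7.35 against 7.76 (-0.41). Both lay just below the interval that held 95% of all genes. The highest was TNFRSF4 at 0.22. The other ligands of the family were mostly dim, with 3 of 13 past the filter, from TNFSF9 at 0.13 to TNFSF14 at -0.10.

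At the death-inducing complex of FAS and TRAIL receptors, FADD read 8.28 on both arrays. CASP8, the initiator caspase-8, read 6.96 against 6.82 (0.13). CFLAR, which encodes the caspase-8 inhibitor FLIP, read 5.50 against 5.62 (-0.12). Its second probe set was dim on both arrays and read 4.38 against 5.18, a difference of -0.80, so that the CFLAR probe sets gave unlike values. CASP10 was dim. The genes of this complex past the filter thus lay between -0.12 and 0.13.

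Of 12 listed genes of the complex that forms on TNFRSF1A, only 8 had a probe set of their own, and all 8 passed the filter. Of these, 5 were higher and 3 lower, with a median of 0.16. RBCK1, part of the linear ubiquitin ligase, was highest at 0.31, and the ubiquitin ligase gene BIRC2 was lowest at -0.06. In the list of TAK1, IKK and NF-kB genes, 5 of 10 were higher and 4 lower (median 0.03). It ran from the NF-kB inhibitor gene NFKBIA at 0.31 to the NF-kB subunit gene NFKB1 at -0.37. Of 12 genes of the mitochondrial arm and the executioner caspases, 7 were higher and 5 lower (median 0.02). DIABLO, which relieves caspase inhibition, was highest at 0.34, and CASP9, the initiator of the mitochondrial pathway, was lowest at -0.35.

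The 4 FAS-associated modulators past the filter were all higher, from DAXX at 0.06 to TMBIM1 at 0.27 (median 0.13). With 59.2% of all genes higher, this direction was the more common one. The necroptosis list left MLKL alone at -0.13, and the list of enzymes reported to glycosylate TRAIL receptors left GMDS alone at 0.10. Among 7 transcription factors reported at TRAIL and FAS genes 4 were higher and 2 lower, from DDIT3 at 0.82 to IRF1 at -0.18, with a median of 0.01.

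**Figure D3:**
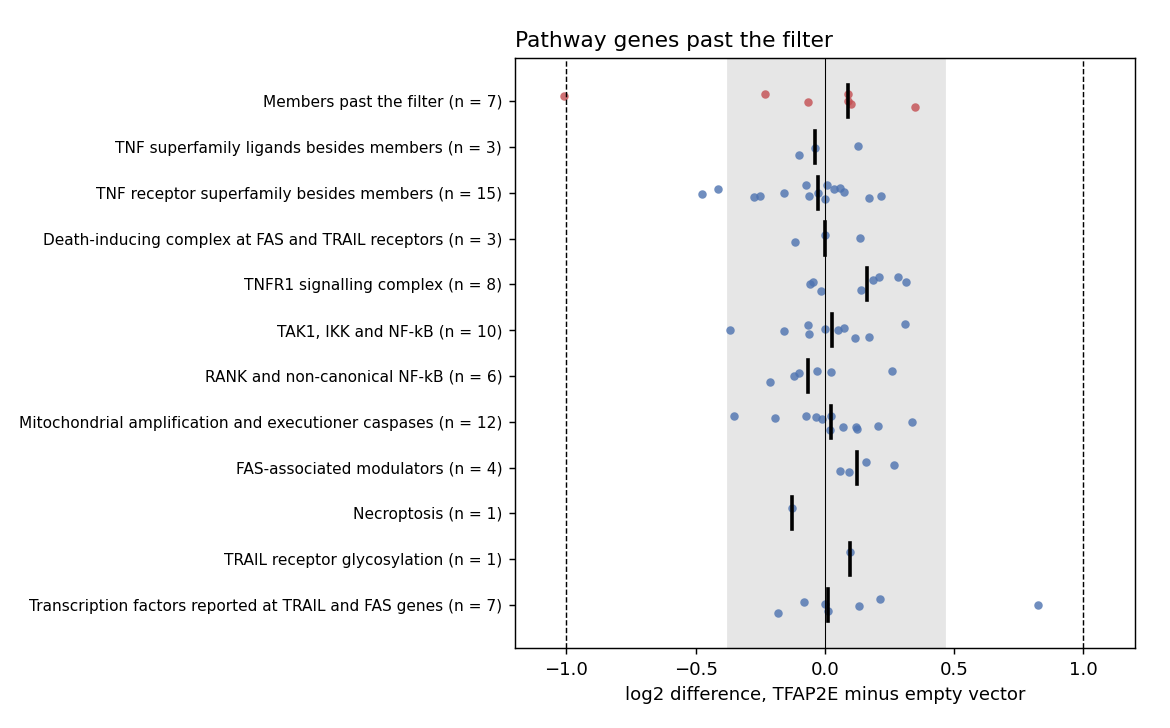
Log2 difference (TFAP2E minus empty vector) of each gene past the filter (points) and the median (black bar), for the 7 members and 11 lists of pathway genes, with n the number of genes past the filter, grey for the central 95% of all genes and dashed lines at 2-fold. TNFRSF11B at -1.01 and DDIT3 at 0.82 stand furthest from 0, and the list medians lie between -0.13 and 0.16.

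The genes past the filter around TNFRSF11B on its chromosome did not share its difference. Order along the chromosome was taken from RefSeq, with the 5 nearest genes past the filter on either side. Genes that were dim or had no probe set of their own were passed over, and no limit was set on distance. Of these 10 neighbours 5 were higher and 5 lower, with a median of -0.01. They ran from DSCC1 at -0.33 to SYBU at 0.34, and 0 of the 10 passed 1.5-fold, against 1.5% of all genes. The nearest on each side were EXT1 at -0.07 and MAL2 at -0.24.

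The TRAIL receptor genes TNFRSF10B, TNFRSF10C, TNFRSF10D and TNFRSF10A lie side by side. They share a position, although the differences of TNFRSF10B and TNFRSF10A pointed in opposite directions. TNFRSF10D was nearly equal at -0.07, and no value is given for TNFRSF10C. Of the 10 neighbours of this cluster 4 were higher and 6 lower, with a median of -0.01, from ENTPD4 at -0.26 to BIN3 at 0.32, and again 0 passed 1.5-fold. TNFRSF10B at 0.35 and TNFRSF10A at -0.23 were thus about as far from 0 as the most distant genes around them.

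**Figure D4:**
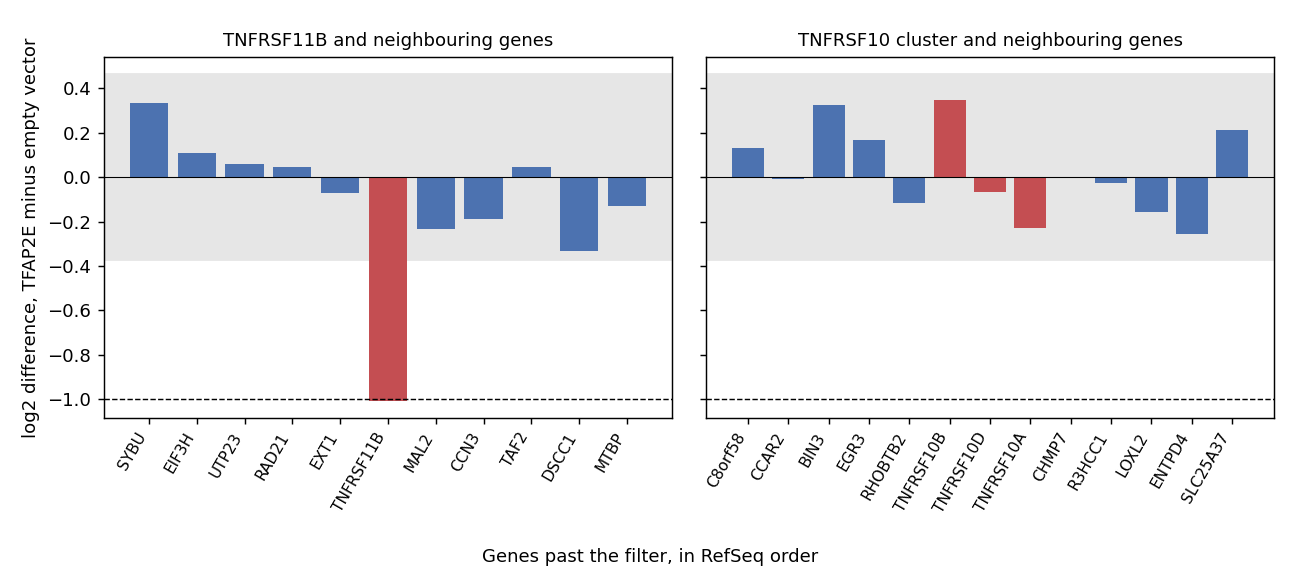
Log2 difference (TFAP2E minus empty vector) of TNFRSF11B (left) and the TNFRSF10 genes (right) in red, with the 5 nearest genes past the filter on either side in blue, in RefSeq order, grey for the central 95% of all genes and a dashed line at 2-fold lower. The 10 neighbours of TNFRSF11B lie between -0.33 and 0.34, while TNFRSF11B lies at -1.01.

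The 5 genes most like TNFRSF11B, by the Euclidean distance of their levels on the 2 arrays, were the homeobox gene HOXB8 (distance 0.30), the annexin gene ANXA1 (0.32), PLEKHB1 (0.35), the tubulin gene TUBA1A (0.36) and SEPT5-GP1BB (0.37). ANXA1 read 7.42 against 8.27, a difference of -0.85, the nearest of them to TNFRSF11B in difference. HOXB8 read 7.85 against 8.49 (-0.65). With 2 arrays, likeness says only that levels are alike on both.

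The TFAP2E probe set read 6.81 on the array labelled TFAP2E overexpression and 6.77 on the empty vector array, so that the values do not show the introduced gene. No source used here states whether its probes lie in the introduced coding sequence, and directions rest on the labels. The Pearson correlation of the arrays across the 11548 genes was 0.986. Of 11 colorectal epithelium markers 9 passed the filter, 3 of them higher and 6 lower in the TFAP2E array, with a median difference of -0.06. VIL1, which encodes the microvillus protein villin, was highest at 6.22 against 4.94 (1.28), and CDH1, the gene of E-cadherin, was lowest at 6.38 against 7.08 (-0.71). Both passed 1.5-fold, in opposite directions. The epithelial surface marker EPCAM read 11.14 against 11.20, and KRT20 and CDH17 were dim. The part of these differences in that of TNFRSF11B was not tested. In the fibroblast and osteoblast-lineage list, the cells in which osteoprotegerin is best known, 4 of 9 genes passed, with a median difference of 0.06, and RUNX2 read 8.66 against 8.58. The differences ran from SP7 at 0.09 to COL1A2 at -0.09, and COL3A1, DCN, LUM, PDGFRB and THY1 were dim. The summed linear signal of that list, to which RUNX2 contributed most, was 721 on the TFAP2E array and 703 on the empty vector array. Endothelium markers passed in 2 of 6 cases, CLDN5 at -0.13 and ENG at 0.00, with a summed signal of 215 against 221. Leukocyte markers passed in 3 of 6 cases, with a median difference of 0.18 and a summed signal of 253 against 217. CD68, which other cells can also make, was highest at 6.60 against 6.02 (0.57) and CD14 lowest at -0.19, while PTPRC, the pan-leukocyte marker, was dim at 2.74 on both arrays. EPCAM, RUNX2 and PTPRC were named as markers from their lists, after their values were seen. In RNA from a whole culture, fewer cells making a transcript and less of it per cell cannot be told apart.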

How the data were processed

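Gene expression was measured on 2 Affymetrix arrays with biotin-labelled target. The authors deposited 1 log2 value for each probe set and array, made with RMA, per the submitters' processing notes. No source used here gives a version or genome build. RMA sets the arrays to nearly 1 distribution (sorted columns differed by at most 0.158), so a change of all transcripts in 1 direction would not appear.

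Of 33297 probe sets, 19460 had 1 gene symbol in the platform annotation, 1754 several and 12083 none. Symbols were updated through RefSeq (GRCh38.p14). Where a gene had several probe sets, the one with the highest mean was used. Genes whose higher value was below 5.55 were set aside as dim. Differences were computed in Python 3.11.15 (pandas 2.3.3, statsmodels 0.14.6) with no further scaling, and the scripts were tested on simulated data. The number of arrays limits the precision.

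The members and lists were chosen with earlier results of these data known. Named genes are the members, the highest and lowest gene of each list, genes past 1.5-fold, dim genes of some lists, and others where the text says so. Alternatives were 3 scalings, other filters, averaged probe sets, a floor and another threshold.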

Additional observations from a re-analysis of the deposited data

How the results depend on the processing

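No alternative changed the sign of the 7 member differences that passed the filter, and the largest move of one was 0.05. Only the 3 scalings could move these differences. Other filters, averaged probe sets and the floor leave a gene with a single probe set at such levels unchanged. TNFRSF11B stayed between -1.05 and -0.98, and the count of members at least 2-fold lower fell from 1 to 0 with each array centred on its median (TNFRSF11B -0.98) and was 0 at a 3-fold threshold. TNFRSF10B stayed between 0.30 and 0.37 and TNFRSF10A between -0.28 and -0.21. Medians were less stable. Of 14 medians of members, lists and neighbours, 7 changed sign under at least 1 alternative tried for them. The largest move was 0.19, for the glycosylation list with no filter (0.10 to -0.09). This count can be too low. The neighbour medians were not recomputed with each array centred on its median, and both lay close to 0. The median of the death-inducing complex was 0 as reported, so no change of sign could be counted, and it ran from -0.05 to 0.03. The median of the members was -0.07 with a filter at the 75th percentile, where 5 members remained. The medians of the lists of TAK1, IKK and NF-kB genes and of mitochondrial and caspase genes turned to -0.01 with quantile normalization. No replicate could be left out. No paired analysis was possible because there is 1 array per group.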

Other observations

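A few pathway genes below the filter are given here, picked after their values were seen. PTPN13, a phosphatase that binds FAS, read 5.43 on the TFAP2E array against 4.54 with the empty vector, a log2 difference of 0.89. TNFSF18, a ligand of the family, read 3.25 against 2.68 (0.58). Both were dim on both arrays. Exactly equal values on both arrays, as for TNFSF11, TNFRSF11A, FADD and PTPRC, occurred for 617 of the 18417 genes and for 159 of the 11548 past the filter.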
